A study of Mus musculus with 76 samples.

Results

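The heat shock chaperones described here are 10 mouse genes: the heat-inducible Hsp70 pair Hspa1a and Hspa1b, the Hsp110 gene Hsph1, the J-domain genes Dnajb1 and Dnaja1, the small heat shock gene Hspb1, the inducible Hsp90 gene Hsp90aa1, the constitutive forms Hspa8 and Hsp90ab1, and Hsf1, which encodes the transcription factor. They were taken by symbol from a table of raw read counts, in which all 10 were found among 38129 entries. RNA had been sequenced from 26 livers, 26 hearts and 24 samples of the suprachiasmatic nucleus (SCN, the seat of the central clock in the hypothalamus). The tested genotype, labelled Bmal1-VIPKO or KO, is a central VIP knockout of the clock gene Bmal1 (Arntl in the table) in the words of the series title, and was set against wild type (WT). VIP is the neuropeptide of a group of SCN neurons. Mice were on time-restricted feeding (TRF), with hours that are not given in the labels, or fed ad libitum (AL), and were sampled at circadian time 12 (CT12) or 0 (CT0). Each of the 24 groups held 3 libraries, except that the TRF KO groups of liver and heart held 4. The labels give no age, sex or strain, do not name the driver of the deletion or the cells it reaches, and do not say whether libraries were made from single or pooled animals, so the p values measure the spread between libraries.

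In unstressed cells Hsf1 protein is held inactive by chaperones. When unfolded proteins draw those chaperones away, Hsf1 forms trimers, binds inverted repeats of a short sequence unit (heat shock elements) and raises transcription of chaperone genes. Hsp70 proteins bind exposed hydrophobic stretches of clients in a cycle that J-domain proteins start and Hsp110 proteins reset, small heat shock proteins hold unfolding clients in a soluble state, and Hsp90 proteins act late in folding, on kinases and nuclear receptors among others. Hspa8 and Hsp90ab1 are abundant in all cells, whereas Hspa1a, Hspa1b and, to a lesser degree, Hsp90aa1 are the forms that heat induces. In mouse liver, heat shock genes are known to follow the daily cycles of body temperature and of feeding.

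Total counts ran from 13502014 to 19018983 per library. CPM below is the reads of a gene relative to all reads of its library, on a fixed scale and after TMM scaling within a tissue. Arntl ranged from 18.3 to 29.2 CPM in KO and from 18.2 to 27.5 CPM in WT SCN libraries, so that bulk SCN did not tell the genotypes apart by this gene, while Vip ranged from 0 to 1.28 CPM in KO and from 0.504 to 17.7 CPM in WT SCN libraries. Defining markers fitted the tissue labels for liver and heart: 4 hepatocyte genes summed to 80246 CPM or more in each liver, and 4 cardiomyocyte genes to 38530 CPM or more in each heart. Libraries labelled SCN were uneven, with 7 SCN neuron genes summing to between 31.2 and 1374 CPM and 5 striatal genes to between 66.2 and 1170 CPM. The 3 AL WT CT12 hearts stood apart. Their 8 brain genes summed to 658, 669 and 1771 CPM, against 93.0 to 120 CPM in the other 23 hearts, their cardiomyocyte genes summed to 38530 to 49160 CPM, against 60218 CPM or more, and library 48 among them held 34.2% mitochondrial counts, against at most 13.6% in the other 23 hearts. They enter the heart levels, tissue comparisons and correlations below, which are also given over the other 23 hearts. In bulk samples, fewer cells of a type and less RNA per cell cannot be told apart.

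Promoters of several members hold letters of the repeat that Hsf1 binds, and the windows shown belong to genes on which called differences below rest. RefSeq promoters (250 bases before to 50 after a start, GRCm38.p6) were available for 6 members with 10 annotated starts, and were searched on both strands for GAANNTTC or TTCNNGAA, a pair of facing 3-base units. Of these 10 promoters 6 held at least 1 match, as did 15.1% of all 32851 promoters. By gene, 5 of the 6 members had a match at any start, all but Dnajb1, as did 17.0% of 27025 genes. A run of 3 alternating units was found at both starts of Hsph1 and in no other member promoter, and in 0.603% of all promoters. The stretches below run 5′ to 3′ on the gene's strand, with matches in capitals. They cover chr17:34972157-34972306 (minus strand) and chr17:34959239-34959388 (minus strand), each from 150 bases to 1 base before the start, chr5:135887769-135887868 (plus strand), and 27 bases just after an annotated start of Hsph1 at chr5:149636281-149636307 (minus strand).
Hspa1a: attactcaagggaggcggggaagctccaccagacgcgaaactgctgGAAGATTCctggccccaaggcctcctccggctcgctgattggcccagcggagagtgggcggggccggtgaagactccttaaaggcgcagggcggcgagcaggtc
Hspa1b: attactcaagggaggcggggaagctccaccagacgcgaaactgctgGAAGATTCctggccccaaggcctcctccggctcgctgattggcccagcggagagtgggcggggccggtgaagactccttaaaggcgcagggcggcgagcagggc
Hspb1: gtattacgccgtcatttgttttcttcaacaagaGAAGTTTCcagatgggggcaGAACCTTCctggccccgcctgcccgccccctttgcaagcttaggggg
Hsph1: ctgcagaTTCTGGAAAGTTCtcctcag

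The Hspa1a and Hspa1b promoters were identical at 296 of 300 bases, and both carry a single match. A match is a description of letters and not of binding. The genes lie side by side on chromosome 17 of GRCm38 with 9951 bases between them, Hspa1b at 34956436 to 34959238 and Hspa1a at 34969190 to 34972156, both on the minus strand. Of the aligned bases of their transcripts, 2515 are identical (84.8% of Hspa1a's 2967 bases), with an unbroken identical run of 638 bases. How reads that match both were counted is not given in the sources used here, so the split of counts between the copies is uncertain. It differed between tissues: Hspa1b had 1 to 3.15 reads per Hspa1a read in hearts (median 1.59), 0.514 to 1.63 in SCN (median 0.77) and 4.21 to 50.8 in livers (median 15.7). The sum of the copies was therefore tested as well.

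Members differed in level between tissues, and the constitutive forms were the most abundant in each. Per kilobase of exon sequence, Hsp90ab1 averaged 504 ± 64.7 CPM in hearts, 338 ± 24.6 in SCN and 457 ± 84.1 in livers (SD, n = 26, 24 and 26 libraries), and Hspa8 averaged 336 ± 57.1, 242 ± 22.4 and 352 ± 114 CPM in the same order, in a scaling over all 76 libraries. Hspb1, the small heat shock gene, reached 237 ± 68.9 CPM per kilobase in hearts, against 5.40 ± 2.23 in SCN and 28.2 ± 18.1 in livers. Hsp90aa1 was highest in SCN at 99.5 ± 9.26 CPM per kilobase, against 24.4 ± 10.8 in hearts and 44.2 ± 20.8 in livers. The inducible pair had the lowest means of the members in hearts and SCN, whereas in livers Hspa1b stood near Hsph1 (11.4 ± 6.12) and Dnajb1 (12.3 ± 4.55). Hspa1b averaged 1.85 ± 2.08 in hearts, 1.82 ± 1.18 in SCN and 11.7 ± 14.4 in livers, and Hspa1a 1.04 ± 1.03, 1.81 ± 0.59 and 0.84 ± 1.44, all in CPM per kilobase. The SDs of the pair are close to or above the means in liver and heart, where groups differed widely. Over the 23 hearts without the AL WT CT12 libraries the means in CPM per kilobase were 516 ± 58.9 for Hsp90ab1, 344 ± 54.7 for Hspa8, 252 ± 56.6 for Hspb1, 22.7 ± 8.02 for Hsp90aa1, 1.93 ± 2.21 for Hspa1b and 1.08 ± 1.09 for Hspa1a.

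In a model of all 24 groups, 9 of the 10 members differed between heart and liver at an adjusted p below 0.05, against 83.6% of all 20006 genes tested, and all 10 differed between SCN and liver, against 93.1% of all genes. These shares are near the background and say nothing particular to chaperones. The size of the differences varied. Hspb1 was higher in heart than in liver by 3.19 ± 0.12 (log2 ± SE) and lower in SCN than in liver by 2.28 on that scale (-2.28 ± 0.13). Dnaja1, a partner of Hsp70, was lower in heart (-2.31 ± 0.07) and in SCN (-1.21 ± 0.07) than in liver. The inducible Hsp90aa1 was lower in heart (-0.77 ± 0.08) and higher in SCN (1.30 ± 0.08), as was Hsph1 (-0.38 ± 0.11 in heart and 1.17 ± 0.11 in SCN). Dnajb1 followed the same order (-0.69 ± 0.07 and 0.27 ± 0.07), and Hsf1 was higher in both (0.65 ± 0.04 and 0.50 ± 0.04). The inducible copies split, Hspa1b being lower than in liver in heart (-2.49 ± 0.20) and in SCN (-2.32 ± 0.19), Hspa1a higher (0.75 ± 0.22 and 1.81 ± 0.20), under the uncertainty of read assignment given above. Hspa8 was not called between heart and liver (-0.06 ± 0.08, adjusted p = 0.46, edgeR quasi-likelihood) and was 0.03 with RLE scaling. Without the 3 AL WT CT12 hearts, averaging the same 7 groups of each tissue, 9 members were again called between heart and liver, among 16612 of 19986 genes. Hspb1 was then at 3.38, Dnaja1 at -2.22, Hspa1b at -2.19, Hspa1a at 1.09, Hsp90aa1 at -0.79, Hsf1 at 0.76, Dnajb1 at -0.58, Hsph1 at -0.28 and Hspa8 at 0.07, the last not called. RLE scaling moved the median of all genes by 0.387 for SCN minus liver. Under it the SCN differences of Hspa8 (-0.53 ± 0.08) and Hsp90ab1 (-0.44 ± 0.04) were -0.14 and -0.04 and not called, and those of Dnajb1 and Hsf1 were 0.67 and 0.90. Heart and SCN were not tested against each other.

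**Figure D1:**
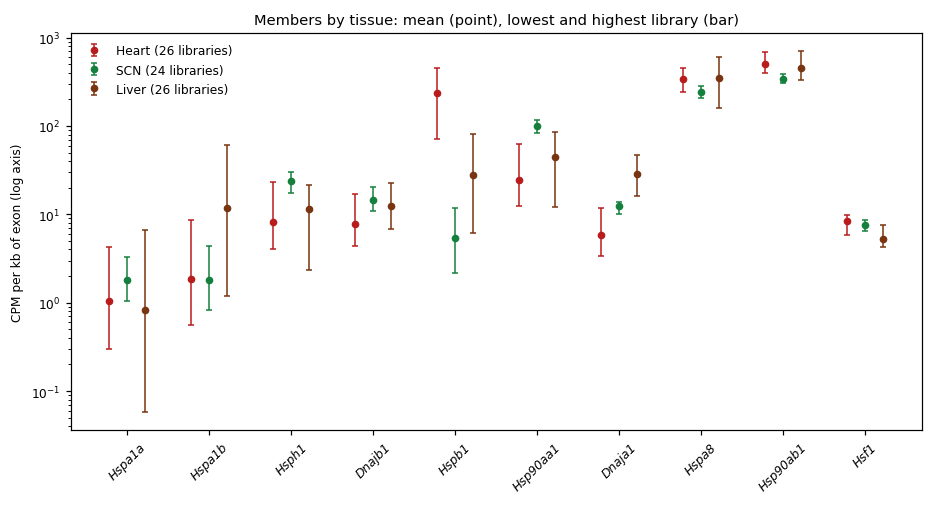
Level of each member per kilobase of exon sequence (CPM per kilobase, log axis) in heart, SCN and liver. Points are means over 26 hearts, 24 SCN libraries and 26 livers, and bars run from the lowest to the highest library. Hspb1 stands at 237 CPM per kilobase in heart against 5.40 in SCN and 28.2 in liver, and Hspa8 and Hsp90ab1 have the highest means in each tissue.

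In livers under restricted feeding 3 members rose at CT12 relative to CT0 in KO mice, against 10.5% of all genes called higher. In WT mice 5 rose, against 11.0%. Among them were Hsp90aa1, Hsph1 and Hspb1 in both genotypes, and the genotype by time test under TRF called no member. The inducible Hsp70 pair and Dnajb1 fell in KO relative to WT livers under both feedings. Hspa1b had 52.4, 30.6 and 112 CPM in TRF WT livers at CT12, against 24.9, 13.5 and 19.2 CPM at CT0. Hspa1a, its neighbouring copy, had 2.97, 1.83 and 13.2 CPM at CT12 and 1.56, 0.604 and 0.719 CPM at CT0. The CT12 libraries lay above all CT0 libraries for each copy, with library 12 the highest. Hspa1a rose by 2.65 ± 0.75 (log2 ± SE, adjusted p = 0.0143), whereas Hspa1b missed the threshold at 1.76 ± 0.68 (adjusted p = 0.0673), as did the sum of the copies at 1.82 (adjusted p = 0.06). The Hspa1a difference was 1.33 without library 12, and the call was lost without TRF WT library 2, 3 or 12 (adjusted p of 0.0558 to 0.208), and in a fit of the compared groups alone (0.104). DESeq2 called Hspa1b (adjusted p = 0.0475).

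The partners of Hsp70 rose as well in TRF WT livers. Hsph1, whose product resets the Hsp70 cycle, had 96.2, 75.2 and 103 CPM at CT12 and 30.7, 25.7 and 32.7 CPM at CT0, a rise of 1.62 ± 0.44 (adjusted p = 0.0126). Dnajb1, whose J-domain starts that cycle, had 38.6, 38.6 and 46.8 CPM at CT12 and 26.2, 27.2 and 26.3 CPM at CT0, a rise of 0.64 ± 0.18 (adjusted p = 0.0142). Neither pair of groups overlapped. Hspb1 had 29.2, 56.6 and 40.4 CPM at CT12, against 9.24, 11.4 and 11.4 CPM at CT0 (1.98 ± 0.44, adjusted p = 0.00298). Hsp90aa1 had 157, 136 and 151 CPM at CT12, against 54.1, 44.6 and 47.5 CPM at CT0 (1.60 ± 0.32, adjusted p = 0.00122), and all CT12 libraries stood far above all CT0 libraries. The constitutive Hspa8 overlapped, with 1704, 803 and 1447 CPM at CT12 and 930, 998 and 989 CPM at CT0 (0.44 ± 0.36, adjusted p = 0.401). Hsp90ab1 and Dnaja1 did not overlap but missed the threshold (0.41 ± 0.17, adjusted p = 0.0807, and 0.34 ± 0.27, adjusted p = 0.378), and Hsf1 itself had a difference of 0.26 ± 0.15 (adjusted p = 0.216). In all, 5 of 10 members were called higher, against 11.0% of the 14397 genes tested, and 7 had an unadjusted p below 0.05, as had 35.6% of all genes in either direction. For 8 members every CT12 library lay above every CT0 library, as it did for 16.6% of all genes. The median of the members was 1.12, against 0.03 over all genes tested. The Hsph1 call was lost without library 2 (adjusted p = 0.0505) and that of Dnajb1 without library 12 (0.0755), both of TRF WT.

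**Figure D2:**
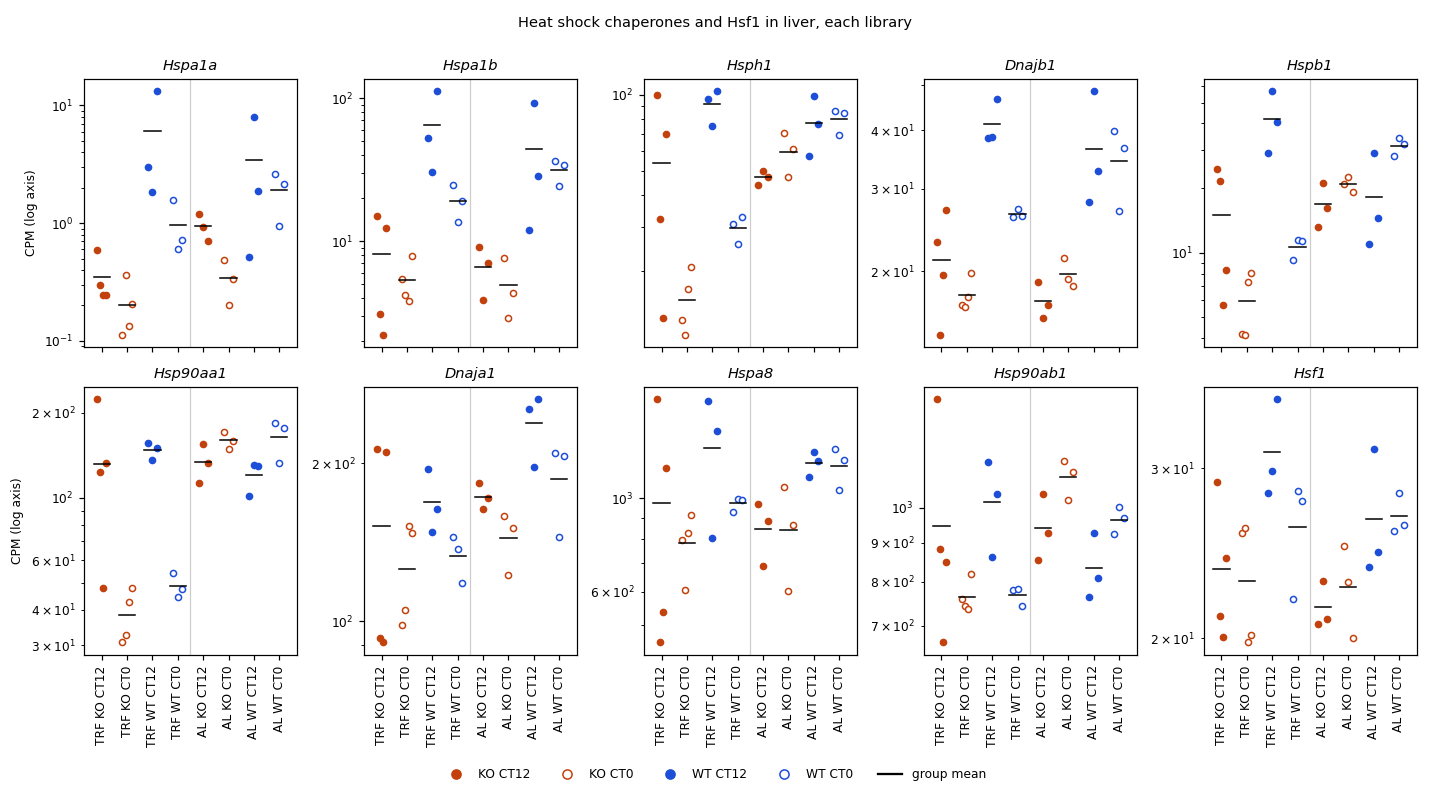
CPM (log axis) of the 10 members in 26 livers, with a panel per member. Dots are libraries and lines are group means, filled at CT12 and open at CT0, orange for KO and blue for WT, with TRF groups left of AL groups. Hsp90aa1 sits at 136 to 157 CPM in TRF WT livers at CT12 and at 44.6 to 54.1 CPM at CT0, and Hspa1b lies lower in most KO than WT livers.

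In TRF KO livers 3 members were called higher at CT12, against 10.5% of all genes. Hsp90aa1 had 224, 123, 47.9 and 133 CPM at CT12, against 30.7, 32.6, 42.8 and 47.7 CPM at CT0 (1.78 ± 0.28, adjusted p = 0.000103). Hsph1 had 99.6, 32.2, 13.2 and 70.1 CPM at CT12 and 12.9, 11.3, 17.0 and 20.9 CPM at CT0 (1.80 ± 0.39, adjusted p = 0.00259). The CT12 group was wide, and library 30 lay at the level of the CT0 libraries for both genes. Hspb1 had 24.5, 21.5, 5.68 and 8.34 CPM at CT12 and 4.17, 4.15, 7.32 and 8.08 CPM at CT0 (1.35 ± 0.40, adjusted p = 0.0194), and this call was lost without TRF KO library 20, 21, 28 or 29 (adjusted p of 0.0591 to 0.0778). In a fit of the compared groups alone Hsp90aa1 was called and Hsph1 (adjusted p = 0.0884) and Hspb1 (0.112) were not. The inducible Hsp70 copies showed no called difference in these livers (0.73 ± 1.10 for Hspa1a and 0.60 ± 0.65 for Hspa1b). The difference between the genotypes in the CT12 to CT0 contrast under TRF was itself tested and gave no called member, against 0.0556% of all genes, with no member at an unadjusted p below 0.05 and none called by DESeq2. Under AL no member was called between CT12 and CT0, in WT (8.99% of all genes called) or KO livers (0.0139%), nor in the genotype by time test (1.56%). None of those 3 tests gave an unadjusted p below 0.05 for a member, or a DESeq2 call.

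The feeding by time test asked whether the CT12 minus CT0 difference, with its sign, was higher under TRF than under AL. In WT livers it was for Hspb1 (2.77 ± 0.61, adjusted p = 0.00219) and Hsp90aa1 (2.05 ± 0.45, adjusted p = 0.00184), 2 of 10 members against 11.9% of all genes. In KO livers it was for Hsp90aa1 (2.04 ± 0.42, adjusted p = 0.00283) and Hsph1 (2.13 ± 0.59, adjusted p = 0.022), against 5.24% of all genes. AL WT livers had Hsp90aa1 at 102, 130 and 129 CPM at CT12 and 184, 133 and 177 CPM at CT0. The order of the times under AL was thus the opposite of that under TRF, although the AL difference alone was not called. Hspb1 followed the same pattern, with 10.9, 29.2 and 14.5 CPM at CT12 and 28.1, 34.3 and 32.1 CPM at CT0 in AL WT livers. Averaged over the times, Hsp90aa1 was lower under TRF than under AL in KO livers (-1.04 ± 0.21, adjusted p = 0.00304) and in WT livers (-0.73 ± 0.22, adjusted p = 0.0496), the second a call that was lost on leaving out any of 23 libraries (adjusted p of 0.0522 to 0.122). Hspb1 was lower under TRF in KO livers (-0.997 ± 0.29, adjusted p = 0.0338), a call that 7 single libraries end (0.0587 to 0.0939). For Hsp90aa1 the lower average rests on CT0. Over both genotypes it ran at CT0 from 30.7 to 54.1 CPM under TRF and from 133 to 184 CPM under AL. At CT12 the feedings overlapped, at 47.9 to 224 CPM under TRF and 102 to 155 CPM under AL. The Hsph1 call of the feeding by time test in KO livers was lost without AL KO library 56, 65 or 410 (0.0528 to 0.061). The calls of lower levels under TRF are 2 of 10 members in KO livers, against 5.26% of all genes, and 1 of 10 in WT livers, against 3.09%.

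Between genotypes the inducible Hsp70 pair and Dnajb1 fell in KO livers under both feedings. Hspa1b had a median of 4.84 CPM (2.22 to 14.9) in the 8 TRF KO livers, against 27.8 CPM (13.5 to 112) in the 6 TRF WT livers, a fall of 2.42 on the log2 scale (SE 0.47, adjusted p = 0.00367). In the 6 AL KO livers the median was 5.66 CPM (2.91 to 9.05), against 31.4 CPM (11.9 to 91.7) in the 6 AL WT livers (-2.70 ± 0.52, adjusted p = 0.00129). All AL KO livers lay below all AL WT livers, as they did for 4.59% of all genes, and under TRF 1 KO library, 28, lay above the lowest WT library. Hspa1a had a median of 0.246 CPM (0.113 to 0.594) in TRF KO livers and 1.70 CPM (0.604 to 13.2) in TRF WT livers (-3.14 ± 0.63, adjusted p = 0.0039), and 0.599 CPM (0.203 to 1.19) in AL KO against 2.02 CPM (0.518 to 7.93) in AL WT livers (-2.16 ± 0.60, adjusted p = 0.0143). These are 2 to 237 reads per liver library for Hspa1a and 36 to 2003 for Hspa1b. The sum of the copies gave -2.46 under TRF (adjusted p = 0.00321) and -2.65 under AL (adjusted p = 0.00145).

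Dnajb1 had a median of 18.6 CPM (14.6 to 27.1) in TRF KO and 32.9 CPM (26.2 to 46.8) in TRF WT livers, with an overlap at the edge (-0.77 ± 0.12, adjusted p = 0.000389). Under AL it had 18.8 CPM (15.9 to 21.4) in KO and 34.7 CPM (26.9 to 48.6) in WT livers (-0.94 ± 0.13, adjusted p = 3.7e-05). All AL KO livers lay below all AL WT livers, as for 4.59% of all genes. Hspb1 was lower in KO livers under TRF (-1.18 ± 0.29, adjusted p = 0.0147) but was not called under AL (-0.35 ± 0.30, adjusted p = 0.443). Hspa8 gave -0.37 ± 0.23 under TRF and -0.51 ± 0.25 under AL, and Hsp90aa1 -0.25 ± 0.21 and 0.05 ± 0.22, none of them called. The counts were 4 of 10 members lower under TRF, against 5.06% of all genes, and 3 of 10 under AL, against 10.3%, and the members' medians were -0.57 and -0.47, against 0.00 and 0.01 over all genes. The genotype by feeding test gave no called member (0.827% of all genes), none at an unadjusted p below 0.05 and none by DESeq2, so a difference between the feedings was not shown. In a fit of the compared groups alone 7 members were called lower under AL (13.8% of all genes), and the Hspb1 call under TRF was lost. The Hspa1a difference under AL was -1.39 without AL WT library 48 of CT12, and the call was lost (adjusted p = 0.0787).

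Some other values also differed between these groups of livers, in either direction, and some overlapped between the genotypes. Cirbp, a transcript induced by mild cold, ran from 23.0 to 53.6 CPM in TRF KO livers at CT12 and from 54.2 to 67.0 CPM at CT0, and from 21.6 to 23.8 CPM in TRF WT livers at CT12 and from 30.0 to 32.9 CPM at CT0. Rbm3, another cold-induced transcript, ran from 28.4 to 41.5 CPM in TRF KO livers and from 22.6 to 30.1 CPM in TRF WT livers. Under AL it ran from 22.8 to 32.2 CPM in KO and from 15.5 to 31.6 CPM in WT livers. Over both times Cirbp was 32.8 to 43.1 CPM in AL KO livers and 17.2 to 27.5 CPM in AL WT livers. The 6 immediate early genes, which respond to handling and stress, summed to 238 to 1555 CPM in AL KO livers and to 116 to 540 CPM in AL WT livers. Under TRF they overlapped widely, at 108 to 520 CPM in KO and 104 to 424 CPM in WT livers. The 4 hepatocyte genes summed to 103254 to 119829 CPM in TRF KO livers and to 80246 to 107658 CPM in TRF WT livers, and without overlap to 96779 to 112295 CPM in AL KO livers and to 82832 to 87865 CPM in AL WT livers. Their part in the results was not tested.

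In hearts under restricted feeding, WT mice had far more inducible Hsp70 transcript at CT12 than at CT0. Hspa1b had 10.0, 21.6 and 22.7 CPM in TRF WT hearts at CT12, against 2.14, 1.47 and 2.64 CPM at CT0 (3.11 ± 0.40, adjusted p = 8.68e-05). Hspa1a had 6.64, 11.9 and 11.3 CPM at CT12, against 1.41, 1.01 and 1.32 CPM at CT0 (2.99 ± 0.40, adjusted p = 9.58e-05). Groups were fully apart for both copies, and the sum of the copies gave 3.07 (adjusted p = 7.7e-05). Among the J-domain genes, Dnajb1 had 38.4, 51.2 and 47.6 CPM at CT12 and 21.8, 16.9 and 16.1 CPM at CT0 (1.33 ± 0.22, adjusted p = 0.00123). Dnaja1 had 80.1, 71.2 and 96.0 CPM at CT12 and 33.0, 38.7 and 30.2 CPM at CT0 (1.28 ± 0.20, adjusted p = 0.000599). Both rose without overlap between the times.

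Hsp90aa1 rose by 1.00 ± 0.25 in TRF WT hearts (adjusted p = 0.0236), with 121, 177 and 138 CPM at CT12 and 78.4, 72.1 and 68.1 CPM at CT0. The constitutive Hspa8 rose by less, 0.52 ± 0.10 (adjusted p = 0.00334), with 1858, 1584 and 1848 CPM at CT12 and 1219, 1249 and 1215 CPM at CT0. Hsf1 rose by 0.33 ± 0.08 (adjusted p = 0.0229), with 65.0, 63.4 and 55.3 CPM at CT12 and 48.0, 47.0 and 51.1 CPM at CT0. None of these 3 overlapped between the times. Hsph1 (0.64 ± 0.28), Hspb1 (0.43 ± 0.20) and Hsp90ab1 (0.15 ± 0.09) were not called, each overlapping between the times. The count was 7 of 10 members higher, against 2.21% of the 16397 genes tested, with a median of 0.82 for the members and 0.00 for all genes. These 7 had every CT12 library above every CT0 library, as did 13.0% of all genes. The count was also 7 without the 3 AL WT CT12 hearts in the fit, which called 4.52% of all genes higher. The calls of Hsp90aa1 (TRF WT libraries 1, 2, 3, 11 or 12, adjusted p of 0.0672 to 0.117) and Hsf1 (TRF WT libraries 1, 2, 10 or 11, 0.0558 to 0.109) were lost on leaving out 1 library.

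In TRF KO hearts the same contrast called Hspa8 (0.37 ± 0.09, adjusted p = 0.0185) and Hsf1 (0.34 ± 0.07, adjusted p = 0.00958), 2 of 10 members against 1.74% of all genes. Hspa8 had 1211 to 1534 CPM (median 1433) in TRF KO hearts at CT12 and 1020 to 1134 CPM (median 1099) at CT0, and Hsf1 had 57.6 to 65.5 CPM (median 63.5) at CT12 and 45.1 to 52.5 CPM (median 50.3) at CT0. These 2, Dnajb1 (0.57 ± 0.19, adjusted p = 0.116) and Hspb1 (0.42 ± 0.17, adjusted p = 0.209) had every CT12 library above every CT0 library, 4 of 10 members as against 5.39% of all genes. An unadjusted p below 0.05 was found for 7 members, the other 3 being Hspa1a, Hsp90aa1 and Dnaja1, and for 15.8% of all genes. Hspa1b had 4.57, 2.46, 2.07 and 4.80 CPM in TRF KO hearts at CT12, against 1.54, 2.65, 2.29 and 2.12 CPM at CT0. These CT12 libraries lie below all 3 TRF WT hearts of CT12 and overlap their own CT0 group (0.69 ± 0.36, adjusted p = 0.37). Without the AL WT CT12 hearts, Hsp90aa1 (0.54, adjusted p = 0.0136) and Dnaja1 (0.51, 0.033) were called too, 4 of 10 members against 3.97% of all genes called higher in that fit. The Hspa8 call was lost without TRF KO library 21, 28, 55 or 64 (adjusted p of 0.052 to 0.0758) and that of Hsf1 without library 21 (0.051). The genotype by time test under TRF called no gene at all (0% of 16397), with Hspa1b at -2.43 ± 0.54 (adjusted p = 0.374) and Hspa1a at -2.11 ± 0.54 (adjusted p = 0.462). Of the members 4 had an unadjusted p below 0.05 in that test, against 5.68% of all genes, and DESeq2 called 1, Hspa1b (adjusted p = 0.0136), among 0.195% of all genes. A difference between the genotypes in the CT12 to CT0 contrast was thus not shown by edgeR.

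**Figure D3:**
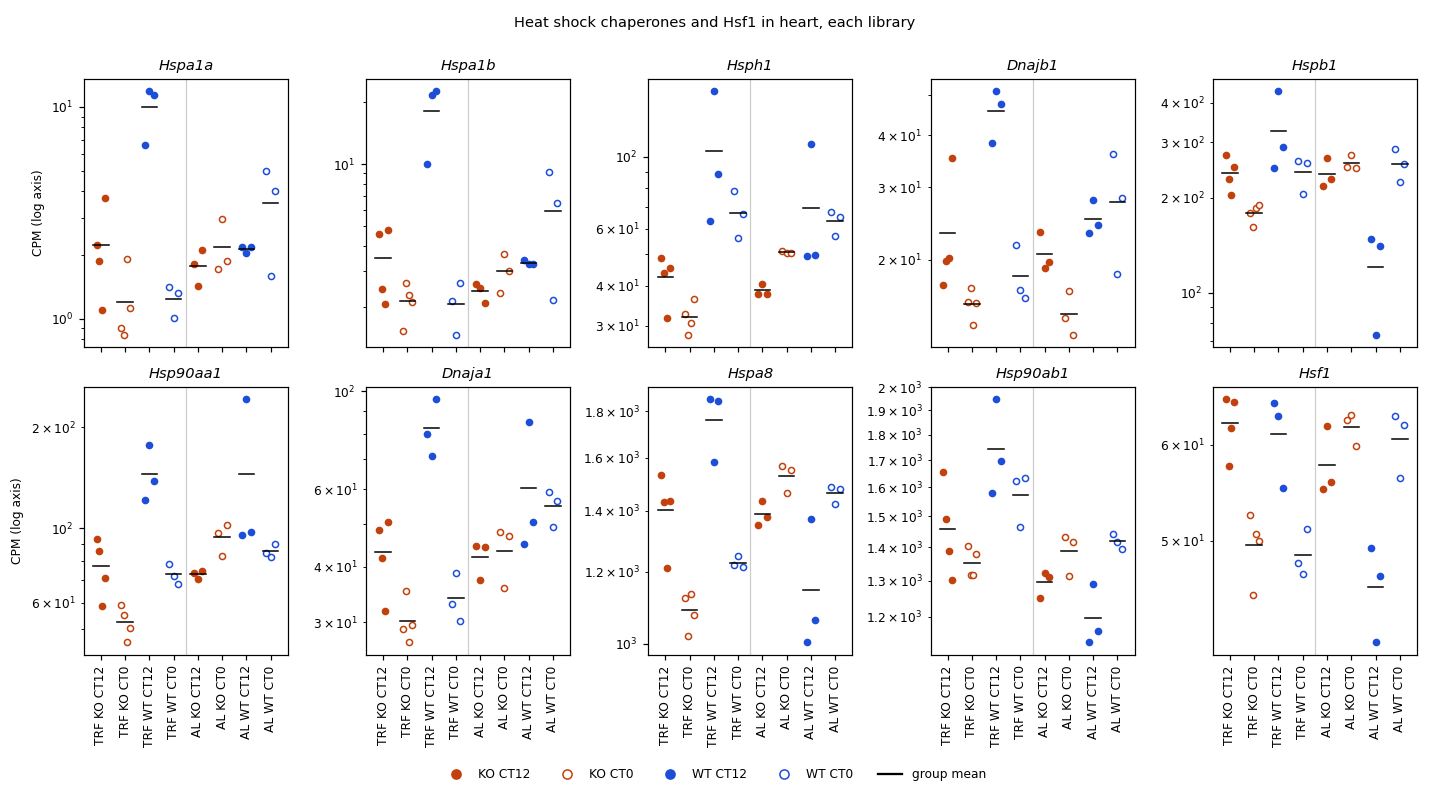
CPM (log axis) of the 10 members in 26 hearts, drawn with a panel per member. Dots are libraries and lines are group means, filled at CT12 and open at CT0, orange for KO and blue for WT, with TRF groups left of AL groups. Hspa1b sits at 10.0 to 22.7 CPM in TRF WT hearts at CT12, above the other 23 hearts, whose highest value is 9.10 CPM. The AL WT CT12 hearts hold brain transcripts, and library 48 is the high point of that group for Hsp90aa1, Hsph1 and Dnaja1.

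Averaged over the times, 8 of 10 members fell in TRF KO hearts relative to TRF WT hearts, against 1.50% of all genes, with a median of -0.58 for the members and 0.00 for all genes. Hsph1 separated the genotypes, as did 0.476% of all genes in that direction. It had a median of 34.4 CPM (28.2 to 48.7) in the 8 TRF KO hearts and 72.3 CPM (56.1 to 160) in the 6 TRF WT hearts (-1.18 ± 0.18, adjusted p = 0.00228). Hsp90aa1 had a median of 58.8 CPM (45.6 to 92.6) in TRF KO hearts and 99.9 CPM (68.1 to 177) in TRF WT hearts (-0.70 ± 0.16, adjusted p = 0.025). Hspa1b (-1.17 ± 0.27), Hspa1a (-1.10 ± 0.27), Dnajb1 (-0.60 ± 0.15) and Dnaja1 (-0.55 ± 0.13) fell with adjusted p of 0.022 to 0.0287, and the constitutive Hspa8 (-0.25 ± 0.07) and Hsp90ab1 (-0.24 ± 0.06) by less, with adjusted p of 0.0382 and 0.0298. For the inducible Hsp70 copies this average rests on the CT12 hearts, although the genotype by time test called no gene. At CT0 Hspa1b ran from 1.47 to 2.65 CPM over all TRF hearts, the genotypes overlapping. Inducible Hsp70 reads per 100 Hspa8 reads averaged 0.31 ± 0.07 in KO and 0.27 ± 0.07 in WT hearts at CT0 (SD). At CT12 they averaged 0.40 ± 0.15 and 1.62 ± 0.64. Hspb1 (-0.44 ± 0.13, adjusted p = 0.0689) and Hsf1 (0.03 ± 0.05) were not called. The count depended on settings: it was 9 without the AL WT CT12 hearts (4.92% of all genes called lower), 2 with no filter on low counts (0.441%), 2 without the AL libraries of 3-digit title numbers (0.607%), and 1 to 9 on leaving out single libraries. Hsph1 alone was called in each of the 26 fits that left out a library; the other 7 calls were each ended by 2 to 14 of them (adjusted p of 0.05 to 0.101).

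Under AL, heart comparisons include the 3 AL WT CT12 hearts that hold brain transcripts. In AL WT hearts Hspb1 fell at CT12, with 148, 73.5 and 140 CPM at CT12 and 286, 225 and 255 CPM at CT0 (-1.08 ± 0.20, adjusted p = 0.000154). Hsf1 (-0.41 ± 0.08), Hspa8 (-0.35 ± 0.10) and Hsp90ab1 (-0.25 ± 0.09) fell too, 4 of 10 members lower against 17.2% of all genes. Hsp90aa1 was called higher (0.77 ± 0.25, adjusted p = 0.0164), 1 of 10 against 23.1%, but with 95.4, 243 and 97.6 CPM at CT12 and 84.6, 81.9 and 89.7 CPM at CT0 the difference rests on library 48, and without it was 0.18 (adjusted p = 0.423). The Hsp90ab1 call was lost without any of 5 AL WT hearts, all but library 48 (adjusted p of 0.0577 to 0.119), that of Hspa8 without 47 (0.0574) and that of Hsp90aa1 also without 39 (0.0508). The shares over all genes are large in this contrast, and cardiac content and time of day cannot be told apart in these libraries. In AL KO hearts no member was called (0.171% of all genes), 1 had an unadjusted p below 0.05, as had 7.04% of all genes, and DESeq2 called none.

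The genotype contrast under AL shares those libraries. It called Hsph1 (-0.58 ± 0.20), Dnajb1 (-0.59 ± 0.16) and Dnaja1 (-0.42 ± 0.14) lower in AL KO hearts, 3 of 10 against 12.2% of all genes, and Hspb1 (0.50 ± 0.14) and Hsf1 (0.18 ± 0.06) higher, 2 of 10 against 6.34%. At CT0 alone only Dnajb1 was called (-0.90), 1 of 10 members against 0.238% of all genes called lower, with Hsph1 at -0.32, Hsf1 at 0.03 and Hspb1 at 0.01. Without library 48, Hsph1 (-0.35), Dnaja1 (-0.27) and Hsf1 (0.14) were not called, in a fit that called 10.9% of all genes lower and 5.20% higher. Hsph1, Dnaja1 and Hsf1 also lost their calls on leaving out any of 15, 6 and 6 libraries (adjusted p of 0.0502 to 0.212). The genotype by time test under AL called Hspb1 higher (0.97 ± 0.28, adjusted p = 0.0127; 11.2% of all genes) and Hsp90aa1 lower (-1.13 ± 0.35, adjusted p = 0.0188; 17.4%), Hsp90aa1 being at -0.55 and not called without library 48 (adjusted p = 0.0593). The 6 immediate early genes, which respond to handling and stress, summed without overlap to 236 to 373 CPM in AL KO hearts and to 171 to 202 CPM in AL WT hearts, and their part in the genotype results was not tested.

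The CT12 minus CT0 difference, with its sign, was higher under TRF than under AL in WT hearts for 8 of 10 members. Of all genes 12.4% were called higher. Hspb1, Hsf1 and Hsp90ab1 changed by more under AL, where they fell (-1.08, -0.41 and -0.25), than under TRF (0.43, 0.33 and 0.15). Hspa1b led (3.95 ± 0.55, adjusted p = 1.37e-05), then Hspa1a (3.72 ± 0.55), Hspb1 (1.51 ± 0.28), Dnajb1 (1.46 ± 0.31), Dnaja1 (1.15 ± 0.27), Hspa8 (0.88 ± 0.14), Hsf1 (0.74 ± 0.12) and Hsp90ab1 (0.39 ± 0.13). This test cannot be formed without the AL WT CT12 hearts; without library 48 all 10 members were called, in a fit that called 30.5% of all genes in either direction and 12.8% higher. AL WT hearts had Hspa1b at 3.41, 3.25 and 3.27 CPM at CT12 and at 9.10, 2.17 and 6.49 CPM at CT0. In KO hearts the same test called Hspa8 (0.51 ± 0.13, adjusted p = 0.047) and Hsf1 (0.44 ± 0.11, adjusted p = 0.0382), against 1.05% of all genes, calls that 22 and 10 single libraries end (adjusted p of 0.0517 to 0.15). The Hsp90ab1 call in WT hearts was lost without TRF WT library 11 or AL WT library 47 (0.0523 and 0.0822).

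Averaged over the times, Hspb1 (0.67 ± 0.14, adjusted p = 0.00113) and Hsp90ab1 (0.35 ± 0.06, adjusted p = 0.00023) were higher in TRF WT than in AL WT hearts, 2 of 10 against 8.57% of all genes. At CT0 alone, where no AL WT CT12 heart enters, these were -0.08 and 0.15 and not called, whereas Hspa1a (-1.50, adjusted p = 0.045), Hspa1b (-1.50, 0.0459) and Hsf1 (-0.32, 0.0361) were lower in TRF WT hearts, 3 of 10 members against 1.22% of all genes called lower at CT0 alone. In KO hearts Hspa8 was lower under TRF (-0.24 ± 0.07, adjusted p = 0.0482), 1 of 10 against 1.71%, a call that 23 single libraries end (0.0534 to 0.131); without the AL WT CT12 hearts Hsp90aa1 (-0.38, adjusted p = 0.0204) was called too. The genotype by feeding test called Hspb1 (-0.93 ± 0.19), Hspa8 (-0.42 ± 0.10) and Hsp90ab1 (-0.28 ± 0.09) lower, 3 of 10 against 2.46%, and here too the AL WT CT12 hearts enter; the Hsp90ab1 call was ended by any of 20 libraries (0.0514 to 0.106). Cirbp also differed between the TRF hearts, being lower at CT12 than at CT0 and higher in KO than in WT. It was 72.9 to 98.4 CPM in TRF KO hearts at CT12 and 114 to 126 CPM at CT0. In TRF WT hearts it was 42.8 to 51.3 CPM at CT12 and 79.7 to 101 CPM at CT0. Its part was not tested.

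In SCN no member passed the threshold over all genes, although for 9 of the 10 every TRF WT library of CT12 lay above every one of CT0, as it did for 7.83% of the 18133 genes tested. In TRF WT SCN, Hspa1b had 16.5, 20.1 and 20.0 CPM at CT12, against 3.80, 4.26 and 4.77 CPM at CT0 (2.14 ± 0.43, adjusted p = 0.114). Hspa1a had 11.9, 16.4 and 14.6 CPM at CT12 and 6.41, 8.30 and 6.67 CPM at CT0 (1.00 ± 0.23, adjusted p = 0.14). Hsph1 had 346, 353 and 354 CPM at CT12 and 260, 227 and 235 CPM at CT0 (0.55 ± 0.12, adjusted p = 0.133). The CT12 libraries lay above all CT0 libraries for each of these. Hspb1 (1.07 ± 0.38), Dnajb1 (0.51 ± 0.15), Dnaja1 (0.25 ± 0.09), Hspa8 (0.24 ± 0.08), Hsp90aa1 (0.19 ± 0.09) and Hsp90ab1 (0.15 ± 0.07) separated the times as well, and Hsf1 overlapped. None of the members was called, as against 0.0165% of the 18133 genes, while 9 had an unadjusted p below 0.05, as had 11.7% of all genes in either direction. DESeq2 called 3 members, among 0.364% of all genes: Hspa1b (adjusted p = 0.000116), Hspa1a (0.0145) and Hsph1 (0.00899). The TRF WT SCN libraries were uneven in content, with SCN neuron genes summing to 31.2 to 820 CPM and striatal genes to 78.2 to 1170 CPM. They hold the lowest SCN neuron sum and the highest striatal sum of all SCN libraries. In TRF KO SCN these sums were 154 to 794 and 92.2 to 499 CPM. Their part was not tested.

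In TRF KO SCN, Hspa1b had 18.8, 8.58 and 5.76 CPM at CT12, against 3.94, 4.20 and 4.79 CPM at CT0. The CT12 libraries were again all higher, but spread widely (1.35 ± 0.43, adjusted p = 0.689). All 10 differences were positive, against 48.7% of all genes, 6 members had every CT12 library above every CT0 library, against 6.50%, and 5 had an unadjusted p below 0.05, against 6.28%, with 0 of 18133 genes called and no member called by DESeq2. The genotype by time test under TRF called 0 genes, gave no member an unadjusted p below 0.05 and gave none by DESeq2. Cirbp ran from 85.5 to 116 CPM in TRF WT SCN at CT12 and from 151 to 181 CPM at CT0. In TRF KO SCN it ran from 126 to 195 CPM over both times, and its part was not tested.

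The remaining SCN tests called no member in edgeR. The shares of all genes called were 0.0276% for time in AL WT, 0% for time in AL KO, 0% for genotype under AL, 0.00551% for genotype under TRF, 4.83% for feeding in WT and 0.232% for feeding in KO. They were 0% for each interaction, that is genotype by time under AL (0) and TRF (0), feeding by time in WT (0) and in KO (0), and genotype by feeding (0). Of the members, 2 had an unadjusted p below 0.05 for time in AL WT, against 4.44% of all genes, 4 for genotype under TRF (11.6%), 1 for feeding in WT (24.0%) and 4 for feeding in KO (17.4%). In the interactions 9 had one for feeding by time in WT, against 6.73% of all genes, 5 for that in KO (4.56%) and 3 for genotype by feeding (4.87%), with none for time in AL KO, genotype under AL or genotype by time under AL. DESeq2 called 2 members in feeding by time in WT (Hspa1b, adjusted p = 0.00531, and Hsph1, 0.0147), among 0.0882% of all genes, and 2 in feeding in KO (Hsph1, 0.00365, and Hsf1, 0.0276), among 2.32%, and none in the others. AL SCN libraries had Hspa1b at 4.03 to 5.54 CPM in WT at CT12 and 4.27 to 9.45 CPM at CT0. In AL KO SCN it ran from 3.99 to 13.2 CPM over both times.

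**Figure D4:**
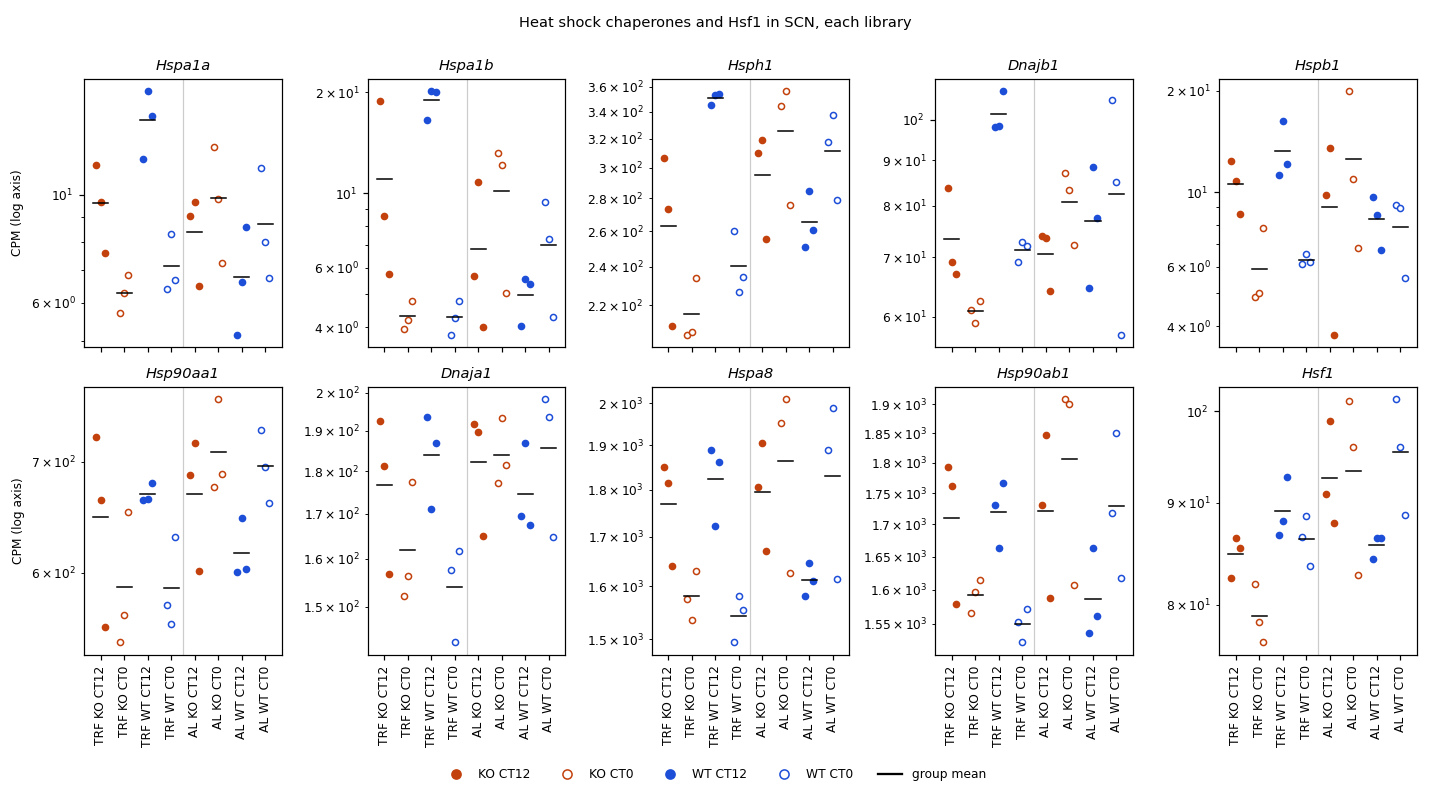
CPM (log axis) of the 10 members in 24 SCN libraries, with a panel for each member. Dots are libraries and lines are group means, filled at CT12 and open at CT0, orange for KO and blue for WT, with TRF groups left of AL groups. Hspa1b sits at 16.5 to 20.1 CPM in TRF WT SCN at CT12 and at 3.80 to 4.77 CPM at CT0, while Hsp90aa1 and Hsp90ab1 span a narrow range over all groups.

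The balance of inducible to constitutive forms was read within each library, where it does not depend on scaling between libraries. Ratios of read counts were compared by exact permutation tests, 2-sided and within strata of genotype or time, in 36 tests adjusted together. Inducible Hsp70 (Hspa1a plus Hspa1b) per 100 Hspa8 reads averaged 0.80 ± 0.26 in TRF KO livers at CT12 and 0.71 ± 0.17 at CT0 (SD, n = 4 each), against 5.32 ± 2.91 and 2.10 ± 0.72 in TRF WT livers (n = 3 each). Under AL it was 0.88 ± 0.18 and 0.61 ± 0.13 in KO livers and 3.77 ± 3.48 and 2.78 ± 0.33 in WT livers. All KO livers lay below all WT livers under either feeding. The log2 ratio was lower in KO livers under TRF (-2.10, exact permutation p = 0.000816, adjusted p = 0.0171) and under AL (-1.94, exact permutation p = 0.005, adjusted p = 0.03), each the smallest p its design allows. The AL call was lost without AL KO library 65, 66 or 410 (adjusted p = 0.0514).

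In hearts the same ratio was 0.40 ± 0.15 in TRF KO at CT12 and 0.31 ± 0.07 at CT0 (n = 4 each), against 1.62 ± 0.64 and 0.27 ± 0.07 in TRF WT (n = 3 each). Over both genotypes the CT12 to CT0 difference was 1.41 under TRF (exact permutation p = 0.0171, adjusted p = 0.072) and was not called, though it was without TRF KO library 30 (0.0441). In SCN the ratio was 1.15 ± 0.43 in TRF KO at CT12 and 0.67 ± 0.05 at CT0, against 1.83 ± 0.31 and 0.74 ± 0.06 in TRF WT. The difference between times under TRF was 1.01 (exact permutation p = 0.005, adjusted p = 0.03), lost without TRF KO library 20, 21 or 55 (0.0514). Without TRF WT SCN libraries 1 and 10 it was 1.05 (exact permutation p = 0.0167, the smallest those libraries allow, adjusted p = 0.072).

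For Hsp90 the ratio of Hsp90aa1 to Hsp90ab1 differed between the times under TRF. Hsp90aa1 reads per 100 Hsp90ab1 reads averaged 13.2 ± 4.13 in TRF KO livers at CT12 and 5.02 ± 0.94 at CT0, and 14.6 ± 1.11 and 6.34 ± 0.63 in TRF WT livers. The log2 ratio was higher at CT12 by 1.28 (exact permutation p = 0.00143, adjusted p = 0.0171). Under AL it was 14.1 ± 0.83 and 14.6 ± 0.33 in KO livers and 14.4 ± 1.35 and 17.2 ± 3.47 in WT livers, with no called difference between times (-0.14, exact permutation p = 0.22, adjusted p = 0.386). The ratio ran from 7.19 to 16.1 in TRF KO livers at CT12, from 13.6 to 15.8 in TRF WT livers at CT12 and from 13.2 to 19.9 in all AL livers. Averaged over the times, the feeding difference was -0.86 in KO livers (exact permutation p = 0.0196, adjusted p = 0.072) and -0.70 in WT livers (exact permutation p = 0.065, adjusted p = 0.156), neither of them called. In hearts the ratio was 5.25 ± 0.69 in TRF KO at CT12 and 3.87 ± 0.37 at CT0, against 8.31 ± 0.71 and 4.64 ± 0.41 in TRF WT. Under TRF it was higher at CT12 (0.64, exact permutation p = 0.00143, adjusted p = 0.0171) and lower in KO than WT hearts (-0.46, exact permutation p = 0.00245, adjusted p = 0.022). Under AL the genotype difference was -0.40 and not called (exact permutation p = 0.105, adjusted p = 0.222). The AL ratio was 5.63 ± 0.29 in KO hearts at CT12 and 6.75 ± 0.45 at CT0. In AL WT hearts it was 11.9 ± 6.03 at CT12, in the libraries with brain transcripts, and 6.02 ± 0.36 at CT0. The ratio was also lower under TRF than AL in KO hearts (-0.46, exact permutation p = 0.00735, adjusted p = 0.0378), a call that any of 10 libraries ends (0.0579 to 0.108). In SCN it lay between 36.9 ± 3.09 and 40.3 ± 2.55 in all 8 group means and no comparison was called. Of the 36 tests 7 were called.

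**Figure D5:**
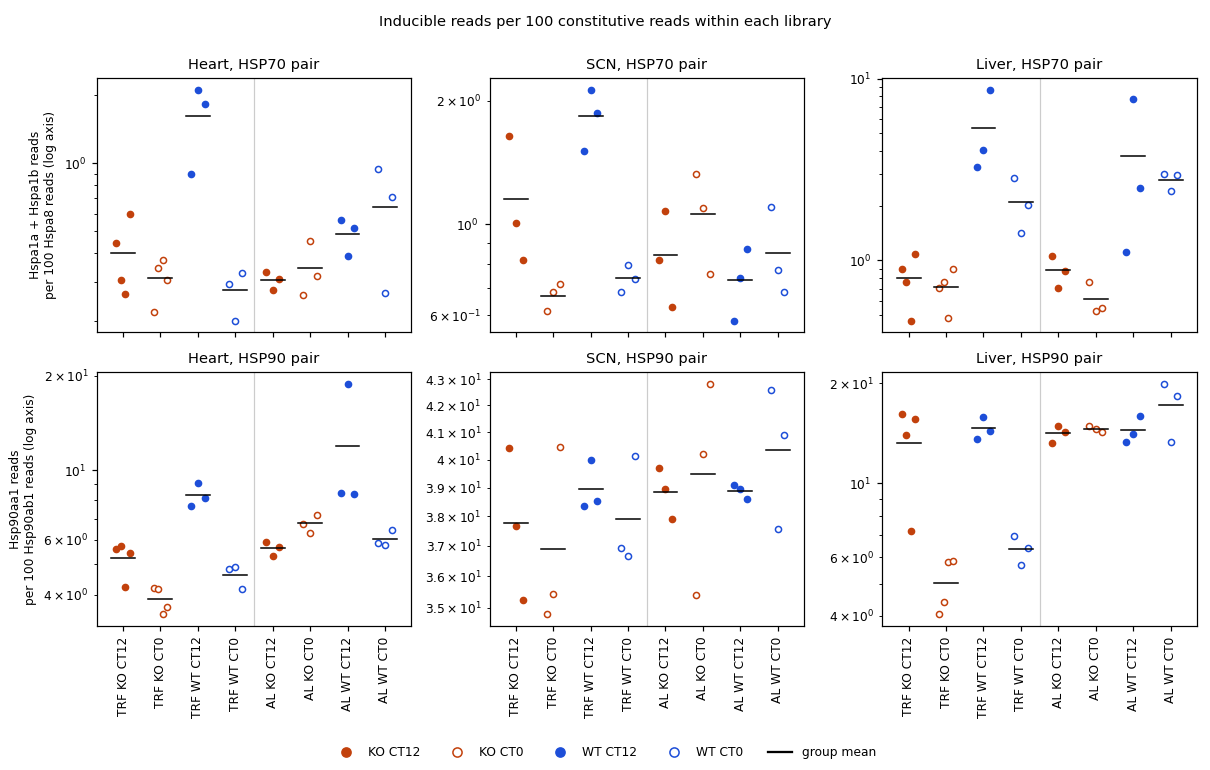
Inducible reads per 100 constitutive reads (log axis) in each library, for Hsp70 (Hspa1a plus Hspa1b per 100 Hspa8) and Hsp90 (Hsp90aa1 per 100 Hsp90ab1) in heart, SCN and liver. Dots are libraries and lines are group means, filled at CT12 and open at CT0, orange for KO and blue for WT. KO livers lie between 0.47 and 1.08 for Hsp70 and WT livers between 1.11 and 8.65, while the Hsp90 ratio of TRF livers is lower at CT0 than at CT12 in both genotypes.

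Among themselves, members of a tissue varied together to different degrees. Across libraries of log2 CPM, Hspa1a and Hspa1b had Pearson's r of 0.961 in hearts, 0.927 in SCN and 0.884 in livers, and Hsph1 and Hsp90aa1 had 0.836, 0.832 and 0.91 (n = 26, 24 and 26 libraries). In livers Dnajb1 went with Hspa1b (0.938), and Hsp90aa1 less so (0.353). These libraries share groups and depth, so the values are descriptions. The 3 AL WT CT12 hearts enter the heart values; over the other 23 hearts the pairs had r of 0.961 and 0.834, while Hspb1 and Hsp90aa1, a pair named after its values were seen, had -0.0666 over 26 and 0.833 over 23 hearts. The members were left out of the rankings of like genes that follow. Those most like Hsp90aa1 were Stip1, the Hsp70 to Hsp90 adaptor, in livers (0.97), before Atp2a2, Gm12346, Cct3 and Mal2 (0.938 to 0.957). In hearts they were Snx27 (0.879), Stip1 (0.865), Zhx1, Ncoa6 and Atp6v0a1 over 26 hearts, but P4ha1 (0.9), Hist1h3d, Ncoa4, Stip1 (0.892) and Ahsa2 over the 23 without the AL WT CT12 libraries, so that of these 5 names Stip1 stands in both. In SCN they were Tax1bp1 (0.911), the mitochondrial chaperonin Hspd1 (0.908), Chordc1, Hsp90b1 and Cacybp. The sum of Hspa1a and Hspa1b was most like Cyp1a1 (0.832), Trmt1l, Clec16a, Zbed4 and Akirin1 in hearts (over 23 hearts Cyp1a1 at 0.87, Ccdc137, Trim65, Trmt1l and Clec16a), Sfpq (0.906), Caprin1, Plod1, Nfya and Dnaja4 in SCN, and Ints5 (0.881), Gigyf2, Max, L3mbtl2 and Ubqln4 in livers.

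Further chaperones and cochaperones, 28 genes listed apart from the members, were counted in the same way. In TRF WT livers 8 were higher at CT12 and 2 lower (28.6% and 7.14% of the list, against 11.0% and 12.1% of all genes), among them the collagen chaperone Serpinh1 (1.85 ± 0.27), the Hsp90 cochaperones Fkbp4 (1.23 ± 0.22) and Stip1 (1.21 ± 0.22), and Dnajb6, which fell (-0.90 ± 0.15). In TRF KO livers 9 were higher and 2 lower (all genes 10.5% and 11.5%), with Serpinh1 at 1.16 ± 0.23, Stip1 at 1.14 ± 0.19, Fkbp4 at 0.99 ± 0.19 and Dnajb6 at -1.01 ± 0.13. In AL WT livers Dnajb6 alone was called, higher at CT12 (0.78 ± 0.15; 4.45% of all genes were). Bag3, a nucleotide exchange factor of Hsp70 and a known Hsf1 target, fell in KO livers under TRF (-0.59 ± 0.18) and AL (-1.06 ± 0.19). The list counts were 0 higher and 2 lower of 28 in KO livers under TRF and 1 higher and 3 lower under AL. The lower calls are 7.14% and 10.7% of the list, near the 5.06% and 10.3% of all genes. In KO livers 10 were lower under TRF than AL (35.7%, against 5.26% of all genes), led by Hspa4l (-0.75 ± 0.15) and Stip1 (-0.65 ± 0.14). The feeding by time test in livers called 4 higher and 2 lower in KO (all genes 5.24% and 5.90%) and 7 higher and 3 lower in WT (11.9% and 13.1%), with Serpinh1 at 1.96 ± 0.34 in KO and 2.49 ± 0.37 in WT, and Dnajb6 at -1.24 ± 0.19 in KO and -1.69 ± 0.21 in WT. The other liver contrasts called none of the 28. In TRF WT hearts 2 of 28 were higher at CT12, Chordc1 (0.79 ± 0.16) and Serpinh1 (0.74 ± 0.21), and none lower (all genes 2.21% and 2.17%). In TRF KO hearts Serpinh1 alone was called (0.72 ± 0.18, higher like 1.74% of all genes), and between the genotypes under TRF the chaperonin Hspd1 alone, lower in KO hearts (-0.25 ± 0.06, as 1.50% of all genes). In KO hearts 1 was higher under TRF than AL, Hspa2 (0.57 ± 0.11), and 2 lower, Serpinh1 (-0.58 ± 0.13) and Chordc1 (-0.40 ± 0.11), against 1.16% and 1.71% of all genes, and the feeding by time test called Serpinh1 alone (1.11 ± 0.27, against 1.05%). In AL WT hearts 1 was higher and 13 lower (all genes 23.1% and 17.2%), led by the small heat shock genes Hspb8 (-0.76 ± 0.11), Hspb6 (-0.49 ± 0.09) and Cryab (-0.72 ± 0.13) and by Trap1 (-0.40 ± 0.07), in the libraries with brain transcripts. Those libraries also enter the counts of 4 higher and 2 lower for genotype under AL (all genes 6.34% and 12.2%), 11 higher and 0 lower for feeding in WT (8.57% and 15.4%), 9 higher and 1 lower for genotype by time under AL (11.2% and 17.4%), 14 higher and 1 lower for feeding by time in WT (12.4% and 17.5%) and 1 higher and 4 lower for genotype by feeding (6.33% and 2.46%). In SCN the list had calls in feeding in WT only, Bag3 higher (0.39 ± 0.11) and Hsbp1 lower (-0.14 ± 0.03) under TRF, against 2.69% and 2.14% of all genes.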

How the data were processed

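RNA-seq libraries of 26 livers, 26 hearts and 24 SCN samples were analysed. The deposited table holds raw read counts per gene made by the authors. The submitters' processing notes name STAR, FastQC 0.11.8 and the mouse build GRCm38, also given as mm10; the counting program, strand setting, annotation release and treatment of reads that match several places are not given in the sources used here. RNA was extracted with TRIzol, and libraries were made with an NEBNext Ultra II kit, per the labels' protocols.

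Groups were taken from titles and genotype, feeding and time labels. For each tissue all 8 groups were fitted with edgeR 4.0.16 quasi-likelihood (filterByExpr, TMM, robust) in R 4.3.3, with 13 contrasts; genotype and feeding contrasts average CT0 and CT12. P-values were adjusted by Benjamini-Hochberg over all genes tested, and called below 0.05. All 10 members passed the filter in each tissue. SE is the log2 difference divided by the square root of F. A fit of all 24 groups compared tissues. Ratios within a library used 0.5 added reads. The procedures were tested on simulated data. DESeq2 1.42.0, RLE scaling, no filter, fits of the compared groups alone, leaving out each library, leaving out the AL libraries of 3-digit title numbers, heart library 48, or SCN libraries 1 and 10, and, for the tissues, the replicate block were alternatives; leaving out the AL WT CT12 hearts, also for tissues and correlations, and CT0 alone in hearts were chosen after seeing the data. Leaving out a library in a group of 3 keeps the pooled spread.

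Members and lists were chosen with earlier results of these data known. Of the list of 28 further chaperones, up to 4 called genes with the smallest p were eligible to be named per comparison. The 5 tested genes outside the members most like Hspa1a plus Hspa1b, or Hsp90aa1, by Pearson's r were named too. Symbols and coordinates come from GENCODE vM21, matched for 38071 of 38129 entries (99.8%).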

Additional observations from a re-analysis of the deposited data

Results flagged for a closer look

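Among 48 sets of 4 values checked (a member or ratio in a TRF KO group of liver or heart), 2 held a library far from the rest by Dixon's criterion, which chance alone meets in about 1 of 20 sets. Hspa1a was 0.594 CPM in TRF KO liver library 28 at CT12, with the other 3 between 0.245 and 0.299 CPM. Dnajb1 was 35.4 CPM in TRF KO heart library 64 at CT12, with the other 3 between 17.4 and 20.2 CPM.

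The size of a contrast differed between conditions by the interaction tests. In WT livers the CT12 to CT0 difference was larger under TRF than AL for Hspb1 (2.77) and Hsp90aa1 (2.05), and in KO livers for Hsph1 (2.13) and Hsp90aa1 (2.04). In WT hearts the difference, with its sign, was higher under TRF for Hspa1b (3.95), Hspa1a (3.72), Hspb1 (1.51), Dnajb1 (1.46) and Dnaja1 (1.15). So it was for Hspa8 (0.88), Hsf1 (0.74) and Hsp90ab1 (0.39), and in KO hearts for Hspa8 (0.51) and Hsf1 (0.44). Hspb1, Hsf1 and Hsp90ab1 of WT hearts fell under AL by more than they rose under TRF. Under AL the CT12 to CT0 difference of hearts differed between KO and WT for Hspb1 (0.97) and Hsp90aa1 (-1.13). The KO minus WT difference of hearts was lower under TRF than AL for Hspb1 (-0.93), Hspa8 (-0.42) and Hsp90ab1 (-0.28). All values are log2 differences, and the WT feeding by time, AL genotype by time and genotype by feeding values of hearts include the 3 AL WT CT12 hearts with brain transcripts. Without library 48 among them, Hsp90aa1 in the AL genotype by time test was -0.55 and not called (adjusted p = 0.0593, edgeR), and all 10 members were called in the WT feeding by time test, in a fit that called 30.5% of all genes.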

How the results depend on the processing

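Counts are of called members, with the reported count in brackets. With DESeq2 they were 1 for heart genotype by time under TRF (0), and in SCN 3 for time in TRF WT (0), 2 for feeding in KO (0) and 2 for feeding by time in WT (0). With RLE scaling they were 0 for heart feeding in KO (1) and 1 for heart feeding by time in KO (2). With no filter they were, in liver, 0 for feeding in WT (1), 1 for feeding in KO (2) and 1 for feeding by time in KO (2), and in heart 1 for genotype under AL (5), 2 for genotype under TRF (8), 0 for feeding in KO (1), 1 for genotype by time under AL (2) and 0 for feeding by time in KO (2). In fits of the compared groups alone they were, in liver, 1 for time in TRF KO (3), 7 for genotype under AL (3), 3 for feeding in WT (1), 1 for feeding in KO (2), 4 for feeding by time in WT (2) and 1 in KO (2). In heart those fits gave 2 for time in AL WT (5), 1 for time in AL KO (0), 3 for genotype under AL (5), 3 for feeding in KO (1), 1 for genotype by time under AL (2) and 5 for feeding by time in KO (2), and in SCN 1 for time in TRF WT (0) and 1 for feeding by time in WT (0). Without the 3-digit AL libraries they were, in liver, 0 for feeding in WT (1), 1 for feeding in KO (2) and 1 for feeding by time in KO (2), in heart 3 for time in AL WT (5), 1 for time in TRF KO (2), 1 for genotype under AL (5), 2 for genotype under TRF (8), 0 for feeding in KO (1), 0 for feeding by time in KO (2) and 1 for genotype by feeding (3), and in SCN 2 for time in TRF WT (0), 5 for feeding in KO (0) and 2 for feeding by time in WT (0). Without heart library 48 they were 4 for time in TRF KO (2), 3 for genotype under AL (5), 4 for feeding in WT (2), 2 for feeding in KO (1) and 5 for genotype by feeding (3). Without the AL WT CT12 hearts they were 4 for time in TRF KO and 2 for feeding in KO, and at CT0 alone 1 for heart genotype under AL. Without SCN libraries 1 and 10, 1 member was called for feeding in KO. The shares of all genes called moved between fits too, and are given above for some of them. Without such a share, a moved count is no result about the members in particular. The causes were not tested.

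Leaving out single libraries gave, in heart, 0 to 2 for feeding in KO, 2 to 4 for feeding in WT, 0 to 3 for feeding by time in KO, 2 to 6 for genotype under AL, 1 to 9 for genotype under TRF, 2 to 5 for genotype by feeding, 2 to 4 for genotype by time under AL, 3 to 5 for time in AL WT and 0 to 4 for time in TRF KO. In liver it gave 1 to 4 for feeding in KO, 0 to 1 for feeding in WT, 1 to 4 for feeding by time in KO, 2 to 6 in WT and 3 to 7 for time in TRF WT, and in SCN 0 to 2 for feeding in KO and 0 to 1 for time in TRF WT. Shares of all genes called in these fits are not given here, so the ranges are no result about the members in particular.

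Of the log2 ratios, without the 3-digit AL libraries the liver Hsp70 genotype difference under AL was -1.92 (adjusted p = 0.156 by the exact test, which cannot pass there because the 8 libraries left allow no p below 0.0556), heart Hsp90 feeding in KO -0.43 (0.1), liver Hsp70 feeding in KO -0.0217 and SCN Hsp90 time under AL 0.0119. Without SCN libraries 1 and 10 SCN Hsp70 time under TRF was 1.05 (0.072, at the smallest p those libraries allow, 0.0167). On leaving out single libraries the Hsp70 ratio ranged in heart from -0.00668 to 0.21 (feeding in KO), -0.98 to -0.53 (genotype under AL), -0.46 to 0.0025 (time under AL) and 1.29 to 1.60 (time under TRF), in liver from -0.0713 to 0.13 (feeding in KO), -0.16 to 0.54 (feeding in WT), -2.27 to -1.57 (genotype under AL) and -0.10 to 0.60 (time under AL), and in SCN from -0.24 to 0.0125 (feeding in KO), -0.57 to -0.32 (genotype under TRF) and 0.87 to 1.12 (time under TRF). The Hsp90 ratio ranged in heart from -0.48 to -0.41 (feeding in KO) and -0.49 to -0.20 (feeding in WT), and in SCN from -0.0481 to 0.0206 (genotype under AL).

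Among single members, Hspb1 of heart feeding in WT was -0.0806 at CT0 alone. Hspa8 between heart and liver was 0.0306 with RLE scaling, 0.0141 with no filter, 0.0306 with DESeq2, 0.0658 without the AL WT CT12 hearts and 0.0398 with the replicate block. The labels do not say whether a library number marks the same animal across tissues. Deviations of same-numbered libraries correlated over 0.1 in 5 of 26 heart and liver pairs, among them all 4 TRF KO CT12 pairs (0.112 to 0.158), and in 0 of 24 SCN and liver pairs. The numbers were not taken as pairing the tissues in the main tests. Low correlations between tissues cannot show that the animals differed, so pairing was not settled. With the replicate block, 8 members were called between heart and liver, among 15869 of 17656 genes. Between SCN and liver 9 were called, among 18057 of 19366 genes. Hsph1 between heart and liver was then -0.28 and not called (adjusted p = 0.0703, edgeR), and Hspa8 between SCN and liver was -0.14 and not called (0.187). Hspa1a had 2 to 237 reads per liver, which limits its precision.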
